A study of Mus musculus with 8 samples.

Results

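Smooth muscle and pericyte genes were examined in dorsal root ganglia (DRGs) of mice that lack α-galactosidase A, the lysosomal enzyme missing in Fabry disease (FD). The 10 genes were Acta2, Myh11, Tagln, Cnn1, Des, Mylk, Myl9, Rgs5, Pdgfrb and Notch3, taken by symbol from the gene names of the array. These genes were chosen from general knowledge, with earlier results of these data known. They had 11 of the 55681 probes of the array that were not controls. Of these, 10 probes of 9 genes were tested, as was every probe that exceeded background clearly on each of the 8 arrays, 29432 in all, and Des was not.

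Smooth muscle cells form the wall of arteries and arterioles and set vessel width by contraction, whereas pericytes sit on capillaries and share many of their genes. Contraction begins when calcium activates myosin light chain kinase (Mylk), which phosphorylates the regulatory light chain (Myl9) of smooth muscle myosin (Myh11) so that it can pull on α-actin (Acta2). Calponin (Cnn1) and transgelin (Tagln) bind actin, desmin (Des) forms intermediate filaments, and Pdgfrb, Notch3 and Rgs5 belong to the signalling that recruits and maintains mural cells. In Fabry disease, globotriaosylceramide is known to accumulate in vascular cells, among them smooth muscle cells and pericytes.

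Lumbar DRGs L3 to L5 came from male α-Gal A(-/0) mice, here called FD, and from wildtype C57BL/6J mice, all aged 20 to 24 weeks. There were 4 samples in each group, every one a pool of DRGs from 2 animals, and each sample was read on its own 1-color Agilent array, with all 8 arrays on 1 slide. The α-Gal A(-/0) mice were on a C57BL/6 background but came from a colony kept apart from that of the wildtype mice, so that the disrupted gene and differences between colonies cannot be told apart in these arrays. All values below are log2 signals after quantile normalization, and a gene was called when its p in limma, adjusted over all tested probes by the method of Benjamini and Hochberg, was under 0.05.

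On a single array 56.5% to 60.8% of probes were well above background, and with 4 arrays a group the number of arrays sets the precision. The probe of Gla, which encodes α-Gal A, lay between 16.49 and 16.72 on the 8 arrays (adjusted p = 0.879 in limma). Whether it lies in the disrupted part of the transcript is not given in the sources used here, so it does not check the sample labels. As a check of the tissue label, all 15 listed genes of sensory neurons were well above background on every array. Of the genes that define smooth muscle, Acta2, Myh11, Tagln and Cnn1 were so on all 8 arrays, whereas Des, Lmod1 and Myocd were not.

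Of the 9 tested genes 1 was called, Myl9, which was lower in FD DRGs, and 0 were called higher. Among all tested probes 1.11% were called lower and 3.07% were called in either direction. The same 1 of 9 had an unadjusted p under 0.05 in limma, against 17.6% of all tested probes. It was also the 1 of 9 genes whose 4 FD samples lay below all 4 wildtype samples, a pattern found in 5.1% of all tested probes. The log2 difference between FD and wildtype DRGs was negative for 8 of the 9 genes, with a median of -0.13, and 44.3% of all 21063 tested genes had a negative value, with a median of 0.02. The 6 tested contractile genes had a median of -0.26 and the 3 pericyte genes a median of -0.10.

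**Figure D1:**
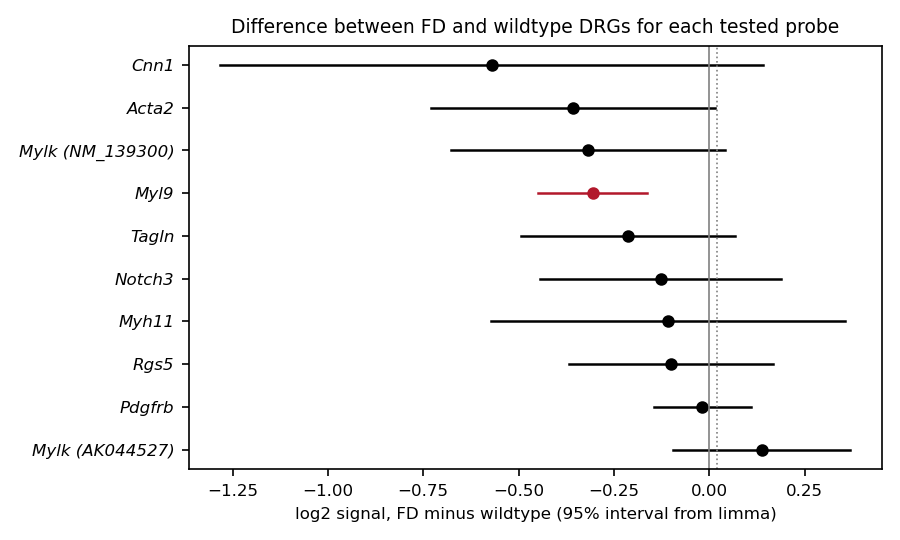
Difference in log2 signal between FD and wildtype DRGs (x axis, FD minus wildtype) for the 10 tested probes, with points for the estimates and lines for the 95% intervals from limma. The solid grey line marks 0 and the dotted line the median of all tested genes at 0.02. The interval of Myl9, in red, reaches from -0.45 to -0.16, while the intervals of the other 9 probes include 0.

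Myl9, the regulatory light chain on which the contraction of smooth muscle is switched, was the member with the clearest difference. Its log2 signal was 12.72, 12.58, 12.62 and 12.56 in the 4 FD samples and 12.86, 12.97, 13.02 and 12.87 in the 4 wildtype samples. All FD samples lay below all wildtype samples, and the samples of each group lay close together. The FD mean was 12.62 ± 0.070 (SD, n = 4) and the wildtype mean 12.93 ± 0.076 (SD, n = 4), giving a log2 difference of -0.31 (SE 0.063, adjusted p = 0.0386 in limma) or 1.24-fold. The call was close to the threshold. It was lost when any 1 of the samples except wildtype sample 1 was left out (adjusted p from 0.0347 to 0.126 over the 8 fits), although the difference then stayed between -0.34 and -0.28. In bulk tissue such as this, the values do not show which cells a signal came from. Fewer of those cells and less RNA per cell cannot be told apart, here and in all values that follow.

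The Myl9 probe lies on chromosome 2 from 156607301 to 156607360 of mm9 on the plus strand, and was designed on NM_172118. Among the 48 other tested genes with a probe within 1 Mb, 1 was called, Nnat, beside 3.07% of all tested probes. The first 30 of the 60 bases of this probe are shown because every Myl9 value rests on them.
Myl9 probe: cttaggcttgtggagttgtctcagcacccc

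Acta2, the smooth muscle α-actin, and Cnn1, calponin, had the most negative log2 differences of the 9 genes, and neither was called. The log2 signal of Acta2 was 9.37, 9.31, 9.20 and 9.04 in FD DRGs and 9.20, 9.97, 9.77 and 9.39 in wildtype DRGs. Of the wildtype samples 3 lay above all FD samples, while wildtype sample 1 lay among them. The log2 difference was -0.36 (SE 0.16, adjusted p = 0.301 in limma), and its 95% interval covers an FD level of 0.603 to 1.01 times that of wildtype. The array carries 10 spots of this probe, of which 9 or 10 were used per array, and the SD between them was 0.045 to 0.097, beside an SD of 0.14 between the FD samples and of 0.35 between the wildtype samples.

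The log2 signal of Cnn1 was 7.06, 7.08, 6.71 and 6.58 in FD DRGs and 6.70, 8.29, 7.67 and 7.04 in wildtype DRGs. The wildtype samples ranged over 1.59 on the log2 scale, or 3.01-fold, and wildtype sample 1 lay below 3 of the 4 FD samples. The log2 difference of -0.57 (SE 0.31, adjusted p = 0.384 in limma) was smaller than this range. Without wildtype sample 2 it was -0.28, and without wildtype sample 1 it was -0.81, with an adjusted p of at least 0.176 in every fit that left out 1 sample. For Acta2 these fits gave -0.23 without wildtype sample 2 and -0.48 without wildtype sample 1.

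Tagln, which encodes the actin-binding protein transgelin, had log2 signals of 11.27, 11.15, 11.22 and 11.07 in FD DRGs and of 11.25, 11.77, 11.35 and 11.19 in wildtype DRGs. The groups overlapped, with wildtype sample 2 standing above the rest, and the log2 difference was -0.21 (SE 0.12, adjusted p = 0.410 in limma). Without wildtype sample 2 it was -0.09.

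Myh11, the heavy chain of smooth muscle myosin, had log2 signals of 6.69, 6.59, 6.12 and 6.15 in FD DRGs and of 5.93, 6.64, 6.68 and 6.73 in wildtype DRGs. The lowest of the 8 values was that of wildtype sample 1, and the FD samples fell into a higher and a lower pair. The log2 difference was -0.11 (SE 0.20, adjusted p = 0.816 in limma), and the 95% interval covers an FD level of 0.672 to 1.28 times that of wildtype. Without wildtype sample 1 the difference was -0.30 (adjusted p = 0.341).

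Mylk, the kinase that acts on the Myl9 protein, had 2 tested probes that did not give the same picture. The probe designed on AK044527, which lies on chromosome 16 from 34953958 to 34954017 of mm9, had log2 signals of 6.33, 6.48, 6.13 and 6.39 in FD DRGs and of 6.36, 6.27, 5.98 and 6.16 in wildtype DRGs. The probe designed on NM_139300, from 35001266 to 35001325, had 6.11, 6.41, 6.14 and 5.65 in FD DRGs and 6.51, 6.53, 6.41 and 6.13 in wildtype DRGs. The groups overlapped for both. The log2 difference was 0.14 (SE 0.10, adjusted p = 0.526 in limma) for the first and -0.32 (SE 0.16, adjusted p = 0.339 in limma) for the second, with the positive value standing for Mylk in the counts above because this probe had the higher mean signal. The starts of the probes are 47.3 kb apart, and their log2 signals had a correlation of -0.12 over the 8 samples, which is a description of these arrays. The first 30 bases of each are shown because the direction of Mylk depends on which of them is read.
Mylk probe on AK044527: gcaagagaattgcaagatcaaggccagccc
Mylk probe on NM_139300: aggacatttatcatgtttcttccatcctga

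Des, which encodes desmin, was close to background in these DRGs. Its probe was well above background on 2 of the 4 FD arrays and on 0 of the 4 wildtype arrays, so it was not tested and no fold is given. The log2 signals were 4.72, 4.73, 4.24 and 4.19 in FD DRGs and 4.33, 4.46, 4.42 and 4.56 in wildtype DRGs. The 2 highest values came from FD samples 1 and 2, which were the arrays with a signal well above background, and the 2 lowest from FD samples 3 and 4. The SD between the 9 or 10 spots used on an array was 0.24 to 0.60, compared with 0.045 to 0.097 for the spots of Acta2. The position of the Des probe in the file spans 226 bases for a sequence of 60.

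**Figure D2:**
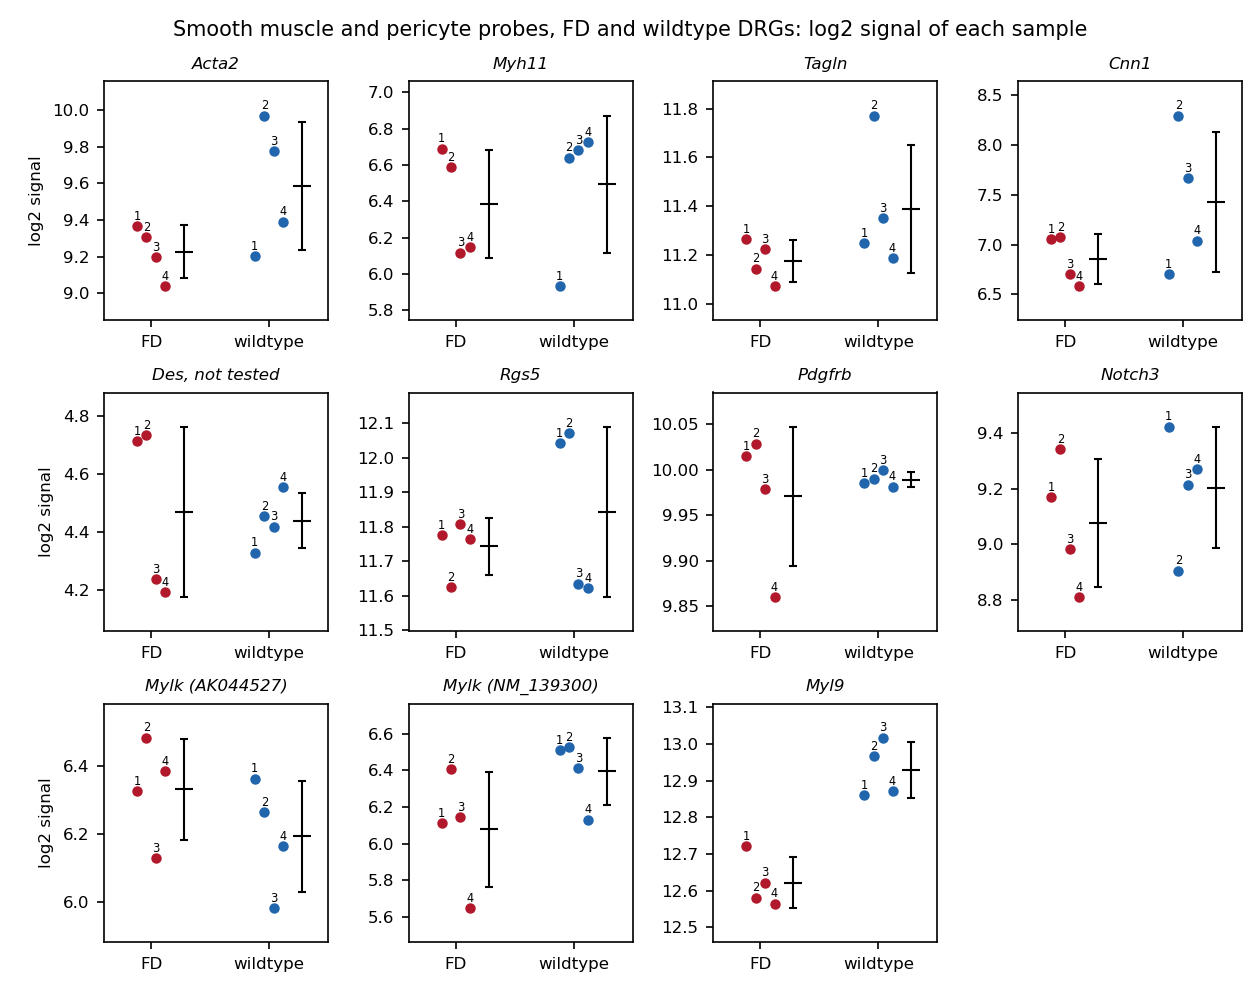
Log2 signal (y axis, own scale in each panel) of the 11 probes in the 4 FD samples (red) and the 4 wildtype samples (blue), numbered by replicate, with black bars for the mean ± SD. Myl9 is the only panel in which the groups do not overlap, and for Acta2, Cnn1 and Myh11 wildtype sample 1 lies apart from wildtype samples 2 and 3.

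None of the 3 genes of pericytes and of the signalling between endothelium and mural cells was called. Pdgfrb, the receptor through which endothelial PDGF-B recruits pericytes, had log2 signals of 10.02, 10.03, 9.98 and 9.86 in FD DRGs and of 9.9855, 9.9904, 9.9998 and 9.9816 in wildtype DRGs. The 4 wildtype samples were nearly equal, and FD sample 4 was the lowest. The log2 difference of -0.02 (SE 0.056, adjusted p = 0.893 in limma) had a 95% interval from -0.15 to 0.11, that is an FD level of 0.904 to 1.08 times that of wildtype. This was the narrowest interval among the 10 tested probes.

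Notch3, the Notch receptor of arterial smooth muscle and pericytes, had log2 signals of 9.17, 9.34, 8.98 and 8.81 in FD DRGs and of 9.42, 8.91, 9.21 and 9.27 in wildtype DRGs. The groups overlapped, and the log2 difference was -0.13 (SE 0.14, adjusted p = 0.673 in limma). Rgs5, a regulator of G protein signalling that is widely used as a pericyte marker, had log2 signals of 11.78, 11.62, 11.81 and 11.76 in FD DRGs and of 12.04, 12.07, 11.64 and 11.62 in wildtype DRGs. The wildtype samples fell into a pair above all FD samples and a pair at or near the lowest FD sample. The log2 difference was -0.10 (SE 0.12, adjusted p = 0.698 in limma), and without wildtype sample 2 it was -0.02.

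The genes differed in how far samples of the same group lay apart. The SD within groups was 0.53 for Cnn1, larger than that of 98.3% of all tested probes, 0.34 for Myh11, larger than that of 94.4%, and 0.27 for Acta2, larger than that of 88.5%. Myl9, with 0.073, was more uniform than most probes, only 16.4% of which had a smaller SD, and for Pdgfrb, with 0.055, the share was 6.94%. The median over all tested probes was 0.13. In all 6 tested contractile genes, with Mylk at its AK044527 probe, the wildtype samples had the larger SD, most of all in Tagln, where it was 3.05 times that of FD, and in Cnn1, where it was 2.82 times. At the other Mylk probe the wildtype SD, 0.18, was smaller than that of FD, 0.32. The wildtype SD was the larger in 70.4% of all tested probes, so this was not particular to these genes.

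The spread was shared among most contractile genes. After the group means were removed, Acta2 and Cnn1 had a correlation of 0.98 over the 8 samples, Tagln and Cnn1 of 0.86, Acta2 and Tagln of 0.83, and Acta2 and Myl9 of 0.77. All of these points share 8 arrays and their normalization, and the values are descriptions. Of the 15 pairs of contractile genes 10 had a positive correlation, with a median of 0.56, while the median was 0.07 over the 18 pairs of a contractile with a pericyte gene and -0.14 over the 3 pairs of pericyte genes. The 3 pericyte pairs differed, with 0.64 for Pdgfrb and Notch3, -0.14 for Rgs5 and Pdgfrb, and -0.33 for Rgs5 and Notch3. Means over contractile genes were not scaled, so genes with a large SD within groups, such as Cnn1, weighed most in them. Set against the mean of the other contractile genes, correlations were 0.95 for Acta2, 0.95 for Cnn1 and 0.75 for Tagln. They were 0.65 for Myl9, 0.59 for Myh11 and 0.43 for Pdgfrb, but -0.18 for Mylk, 0.03 for Rgs5 and -0.29 for Notch3. Wildtype sample 2 was the highest of the 8 samples for Acta2, Tagln, Cnn1 and Rgs5, and FD sample 4 was the lowest for Acta2, Tagln, Cnn1, Myl9, Pdgfrb and Notch3.

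**Figure D3:**
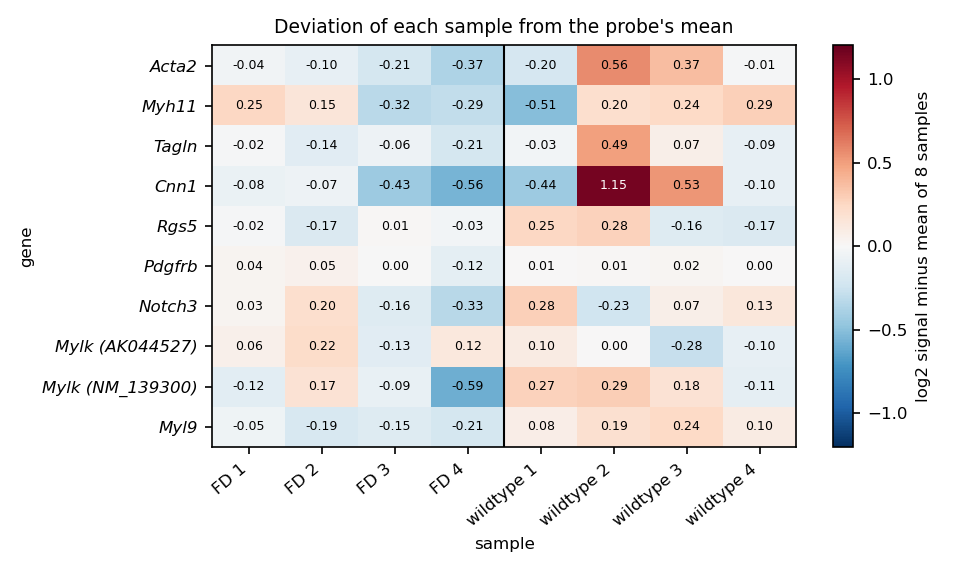
Log2 signal of each sample (columns) minus the mean of the 8 samples for the 10 tested probes (rows), printed in each cell and shaded from blue (lower) to red (higher), with a line between the FD and the wildtype samples. Cnn1, Acta2 and Tagln are highest in wildtype sample 2, and Cnn1 and Acta2 are near or below their mean in wildtype samples 1 and 4.

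The 8 arrays lay in 2 rows of the slide, and the groups were not spread evenly over them. Row 1 held FD samples 1 to 3 and wildtype sample 1, and row 2 held FD sample 4 and wildtype samples 2 to 4. For Myl9 the log2 difference was -0.22 within row 1 and -0.39 within row 2. For Acta2 it was 0.09 within row 1 and -0.67 within row 2, for Cnn1 0.24 and -1.08, and for Myh11 0.53 and -0.54. Each of these within-row values sets 3 samples against 1, and none was called. With the row as a block in the fit, Myl9 had a log2 difference of -0.30 (adjusted p = 0.0769 in limma). In that fit Acta2 had -0.29, Cnn1 -0.42, Tagln -0.20 and Myh11 -0.001, beside -0.36, -0.57, -0.21 and -0.11 without the block. Rgs5 had -0.16, Pdgfrb -0.05 and Notch3 -0.29, beside -0.10, -0.02 and -0.13. Mylk had 0.10 at its AK044527 probe and -0.50 at the other, beside 0.14 and -0.32. No member was called in that fit. Apart from it, the part of the row in these differences was not tested.

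The mean of the 6 contractile genes was again not scaled, so that Cnn1, Myh11 and Acta2 weighed most in it. The genes whose deviations from the group means were most like this mean were no smooth muscle genes by the lists used here. They were Pikfyve, Fmo4, Grm5, Klhl32, 2900005J15Rik, Cep162 and 2 transcripts named by their position on chromosomes 2 and 10, with correlations of 0.96 to 0.98 over the 8 samples, the highest of 21053 genes. Of them Fmo4, a flavin-containing monooxygenase, was called and was lower in FD DRGs (log2 difference -0.70, SE 0.12, adjusted p = 0.0216 in limma). Of 35 other genes of the contractile apparatus 0 were among the 100 most alike, and their median correlation was -0.05, beside 0.02 over all genes. Correlations as high as 0.96 can arise by chance among 21053 genes over 8 arrays, so all of these values are descriptions.

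Acta2 and Myl9 also had in common a sequence that the choice of genes did not use. Serum response factor, which drives many contractile genes together with myocardin, binds CArG boxes, that is CC, then 6 letters that are A or T, then GG. The 250 bases before the start of the gene were searched on both strands in the promoter sequences of RefSeq for GRCm38.p6, which held 7 of the 10 genes (Acta2, Cnn1, Des, Rgs5, Notch3, Mylk and Myl9). A CArG box in the strict form was found in Myl9 alone, and in 1.62% of all 27025 genes of that collection. With 1 of the 6 inner letters free, which takes in the strict form, Acta2 and Myl9 each held 2 boxes, and 9.78% of all genes held at least 1. In the lists described below, 8 of 33 other contractile genes held at least 1, as did 5 of 11 genes of skeletal muscle. So did 3 of 10 genes of Schwann cells and satellite glia, 3 of 12 of endothelium and 2 of 7 of blood and immune cells. The counts were 2 of 12 for fibroblasts and meninges and 3 of 15 for transcriptional control of smooth muscle. They were 1 of 16 for PDGF and Notch signalling, 1 of 21 for pericyte and mural genes and 0 of 10 for sensory neurons. Such boxes were thus not particular to Acta2 and Myl9. The boxes are shown in capitals within 30 bases, read on the strand of the gene, since they are what these 2 genes share.
Myl9, first box: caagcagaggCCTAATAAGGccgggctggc
Myl9, second box: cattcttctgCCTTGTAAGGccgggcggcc
Acta2, first box: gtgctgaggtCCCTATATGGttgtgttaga
Acta2, second box: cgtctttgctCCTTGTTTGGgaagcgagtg
The first box of Myl9, the strict one, begins 161 bases before the start of the gene, within chr2:156775293-156775322 on the plus strand, and the second 99 bases before it, within chr2:156775355-156775384. Those of Acta2 begin 84 and 34 bases before the start, within chr19:34255438-34255467 and chr19:34255388-34255417 on the minus strand. E boxes, with the letters CANNTG, were found in Acta2, Cnn1 and Des, and in 69.3% of all genes. A match of letters does not show that a factor binds there, and the lack of one in the other genes says only that the letters are not in this window.

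The other genes of the contractile apparatus were taken from a list of 39, of which 35 were tested. Of these, 2 were called lower in FD DRGs and 0 higher, beside 1.11% of all tested probes called lower. A negative log2 difference was found for 26, with a median of -0.12, beside 44.3% of all tested genes. At an unadjusted p under 0.05 in limma 11 were lower and 2 higher, beside 17.6% of all tested probes in either direction. The level of this list, that is the mean over its 35 genes of the log2 signal minus the mean of the 8 samples, lay from -0.13 to -0.02 in the FD samples and from 0.01 to 0.12 in the wildtype samples. The 2 called genes, Kcnmb1 and Sncg, were lower in every FD sample than in every wildtype sample. Leaving them out therefore narrows this separation by construction. Without them, an alternative chosen after seeing the data, the level of the 33 others lay from -0.108 to -0.0044 in FD and from -0.0065 to 0.103 in wildtype samples, so that the groups overlapped, with a median log2 difference of -0.088. Differences were mostly negative in lists of other cells too, for 15 of 19 endothelial genes, whose level was -0.07 to -0.03 in FD and -0.04 to 0.13 in wildtype, and for 15 of 17 genes of fibroblasts and meninges, with -0.29 to 0.05 and -0.15 to 0.30. They were also negative for 10 of 11 genes of blood and immune cells, 11 of 15 of Schwann cells and satellite glia and 10 of 15 of sensory neurons. The part of these cells in the values of the contractile genes was not tested.

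Kcnmb1, the β1 subunit that makes the large-conductance calcium-activated potassium channel of smooth muscle more sensitive to calcium, was called with the lowest adjusted p of this list. Its log2 signal was 10.66 to 10.79 in the FD samples and 11.36 to 11.45 in the wildtype samples. The groups lay far apart relative to the SD of 0.054 in FD and 0.036 in wildtype samples. The log2 difference was -0.69 (SE 0.053, adjusted p = 0.000282 in limma), a 1.61-fold lower level, and it lay between -0.72 and -0.67, past the threshold, whichever sample was left out. Wildtype sample 1, which was low for Acta2, Cnn1 and Myh11, was the highest of the 8 for Kcnmb1. Of the 12 other tested genes within 1 Mb 0 were called, beside 3.07% of all tested probes.

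The other called gene of the list was Sncg, which encodes γ-synuclein and was listed as a smooth muscle gene but is also known as an abundant transcript of sensory neurons. Its log2 signal was 16.46, 16.67, 16.70 and 16.52 in FD DRGs and 17.26, 17.30, 17.26 and 17.30 in wildtype DRGs, a log2 difference of -0.69 (SE 0.067, adjusted p = 0.00103 in limma). Of the 18 other tested genes within 1 Mb 4 were called (Mmrn2, Mapk8, Syt15 and Opn4), beside 3.07% of all tested probes. Sncg thus lies among other called genes, and the 2 groups came from separate colonies. The part of this stretch of chromosome 14 in the value of Sncg was not tested. Cnn2, a calponin found in many cell types, had the next lowest p (log2 difference -0.29, SE 0.065, adjusted p = 0.0504 in limma) and was not called. Of the subunits of myosin phosphatase, which reverses the action of Mylk, Ppp1r12a had a log2 difference of -0.13, Ppp1r12b of -0.24 and Ppp1cb of 0.06. For Rock1 and Rock2, the kinases that inhibit it, the values were -0.04 and -0.01, for their activator Rhoa -0.06, and for its inhibitor Ppp1r14a -0.01. None of these 7 was called.

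**Figure D4:**
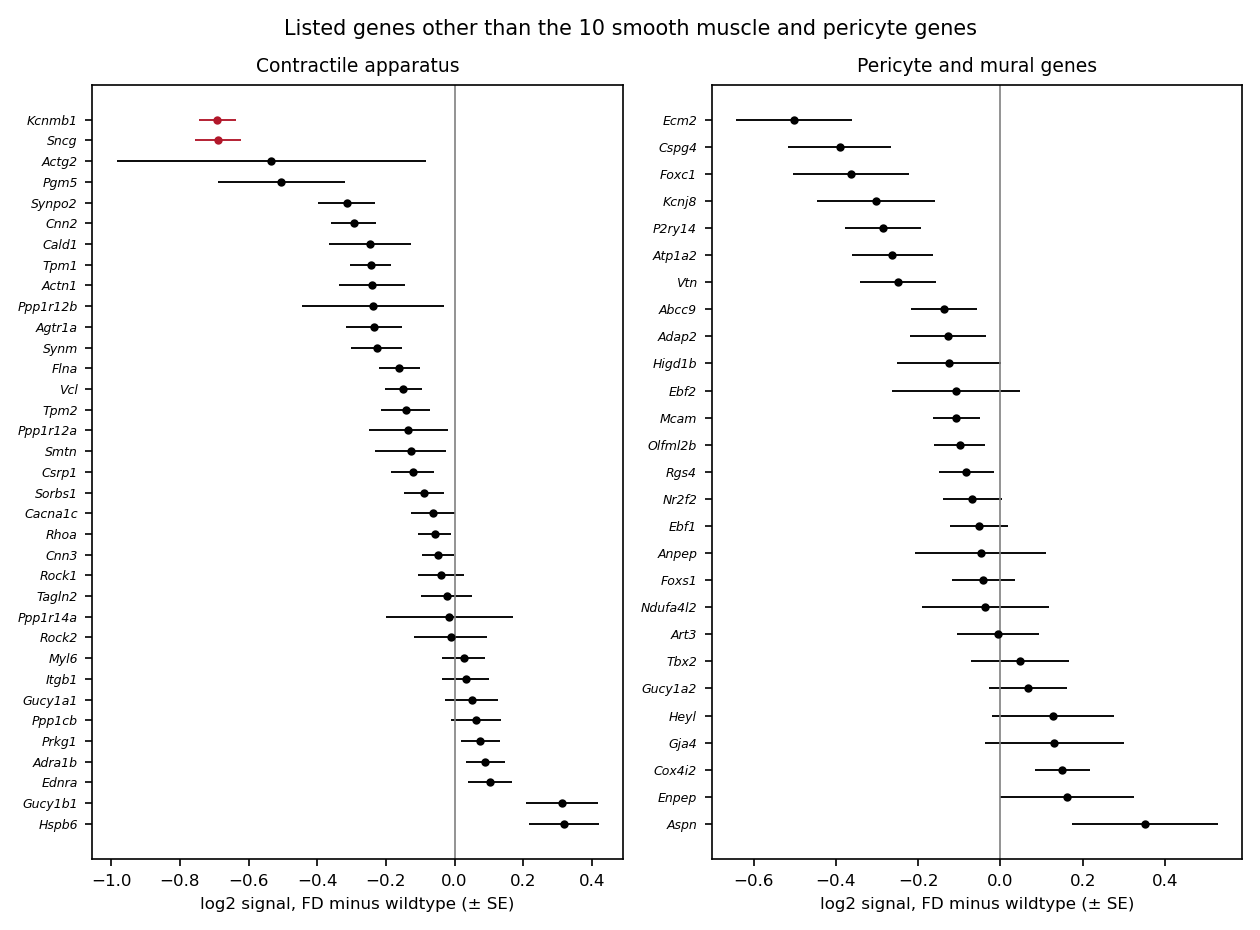
Difference in log2 signal between FD and wildtype DRGs (x axis, ± SE from limma) for 35 other genes of the contractile apparatus (left) and 27 other pericyte and mural genes (right), ordered by size, with called genes in red. Kcnmb1 and Sncg, both at -0.69, are the called genes, and 26 genes on the left and 20 on the right lie below 0.

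Of 27 tested pericyte and mural genes 0 were called, and 0 passed with the methods' t-test after adjustment. Beside 3.07% of all tested probes called in either direction, a count of 0 does not set these genes apart. At an unadjusted p under 0.05 in limma 6 were lower and 0 higher, beside 17.6% of all tested probes in either direction. A negative log2 difference was found for 20, with a median of -0.08. The lowest adjusted p belonged to Ecm2, a matrix protein (log2 difference -0.50, SE 0.14, adjusted p = 0.106 in limma), Cspg4, which encodes the pericyte proteoglycan NG2 (-0.39, SE 0.13, adjusted p = 0.149), and P2ry14, a receptor for UDP-glucose (-0.29, SE 0.093, adjusted p = 0.157). The FD samples of Ecm2 lay below all wildtype samples, from 7.67 to 8.07 against 8.08 to 8.59, and the groups overlapped for the other two. Calls were gained for Cspg4 with the slide row as a block (-0.56, adjusted p = 0.0285 in limma) and for Ecm2 with array weights (adjusted p = 0.0368). P2ry14 was called with array weights (adjusted p = 0.0126) and when wildtype sample 1 was left out (adjusted p = 0.0142). Among all tested probes, 824 were called with the block, 2102 with array weights and 1038 without wildtype sample 1, beside 904 in the reported fit. Outside the within-row fits, the other alternatives gave these genes no call. Within slide row 1 the log2 difference was -0.015 for P2ry14 and -0.22 for Ecm2, and within row 2 it was -0.36 and -0.69. For Cspg4 it was -0.61 and -0.50, and -0.31 with normexp background correction. The potassium channel subunits of pericytes, Kcnj8 and Abcc9, had log2 differences of -0.30 and -0.14 and were not called.

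Among the genes of PDGF and Notch signalling, 0 of 19 were called, beside 3.07% of all tested probes, with a median log2 difference of -0.05. At an unadjusted p under 0.05 in limma 2 were higher and 2 lower, beside 17.6% of all tested probes in either direction. Pdgfb, the ligand of the receptor Pdgfrb, had a log2 difference of -0.02. Notch1 had -0.42 (SE 0.14, adjusted p = 0.157 in limma), Notch2 had -0.20 (SE 0.068, adjusted p = 0.166) and the ligand Jag1, which activates Notch3 in mural cells, had 0.34 (SE 0.12, adjusted p = 0.170). Of 18 tested genes of the transcriptional control of smooth muscle 0 were called, beside the same 3.07%, with a median of -0.01. Of them 1, Smad3, had an unadjusted p under 0.05 in limma (log2 difference -0.13, adjusted p = 0.267). Srf, the factor that binds CArG boxes, had a log2 difference of 0.07, and its partners Mrtfa and Mrtfb had -0.21 and 0.04. Myocd, the partner most restricted to smooth and cardiac muscle, was not well above background on all arrays.

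Genes of the cells around the vessels were read for comparison. Over all tested probes 3.07% were called in either direction, and 17.6% had an unadjusted p under 0.05 in limma. In the endothelium 7 of 19 genes were lower and 1 was higher at an unadjusted p under 0.05 in limma. The 1 that was called was the higher one, Slc2a1, the glucose transporter GLUT1 (log2 difference 0.33, SE 0.069, adjusted p = 0.0412 in limma), while Flt1 and Vwf had -0.36 and -0.39 and were not called. In the list of fibroblasts and meninges 1 of 17 was called, Fmod, which encodes fibromodulin (log2 difference -0.88, SE 0.15, adjusted p = 0.0163 in limma), with 4 lower and 0 higher at an unadjusted p under 0.05. Its difference was -0.38 with normexp background correction, and its call was lost without FD sample 2 (adjusted p = 0.0593) and without a filter on background (adjusted p = 0.0610). Of 15 genes of Schwann cells and satellite glia 0 were called, with 3 lower at an unadjusted p under 0.05 in limma, and of 15 genes of sensory neurons Snap25 was called lower (-0.47, adjusted p = 0.00443) and Tac1 higher (0.34, adjusted p = 0.0493). Of 11 blood and immune genes 0 were called, with 1 higher and 3 lower at an unadjusted p under 0.05 in limma. Hba-a1, which encodes a haemoglobin chain and had the brightest probe of this list, had a log2 difference of -0.41.

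Skeletal muscle shares contractile proteins with smooth muscle and can be carried along when DRGs are dissected. Of 14 listed genes, among them Myh1, Myh4, Ckm and Ttn, 10 were not well above background on all arrays. The level of the 4 others was highest in FD sample 1, with 0.57, and lay from -0.32 to 0.17 in the remaining samples. Tnni2, which had the brightest probe of them, had a log2 difference of 0.68 and was not called. Over all 10 lists, the methods' t-test called 1 gene of the contractile apparatus, Kcnmb1, and 1 of sensory neurons, Snap25, after adjustment, and 0 of the others.

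**Figure D5:**
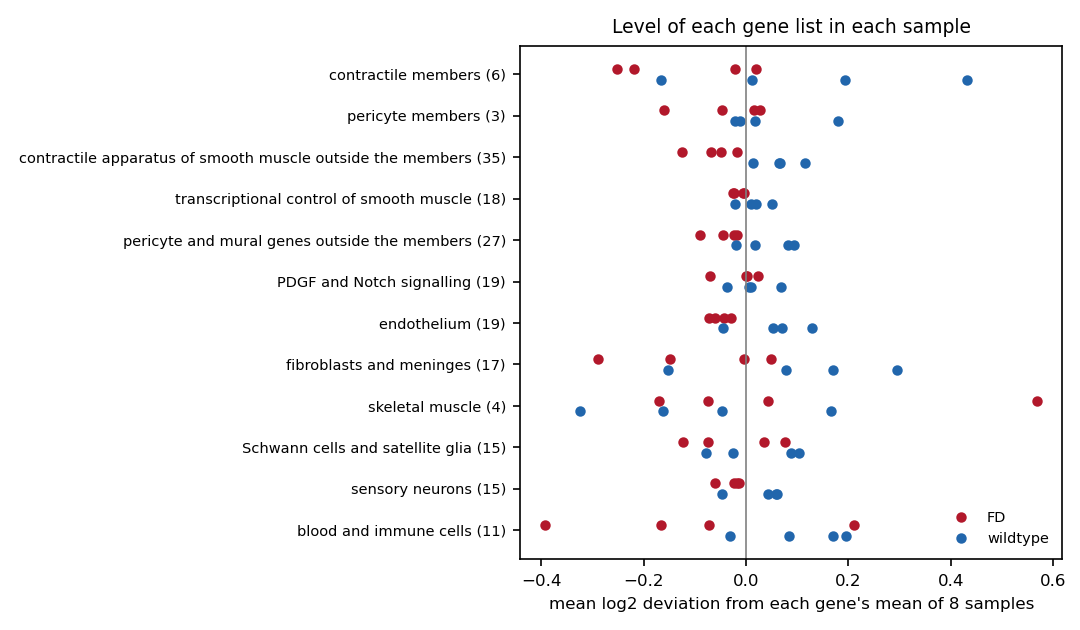
Level of each gene list (rows, with the number of tested genes) in the 4 FD samples (red) and the 4 wildtype samples (blue), as the mean log2 deviation of its genes from their mean over the 8 samples (x axis). The groups overlap for the 6 contractile and the 3 pericyte genes described above. They do not for the 35 other genes of the contractile apparatus, but do so without Kcnmb1 and Sncg, where FD reaches up to -0.0044 and wildtype down to -0.0065.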

How the data were processed

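RNA of 8 lumbar DRG samples, 4 FD and 4 wildtype by their labels, was measured on 1-color Agilent arrays. Per the file headers, the deposited spot intensity was read with Agilent Feature Extraction 10.7.3.1, which subtracted background and detrended each array. The authors' table, used as an alternative, holds log2 values that the authors quantile normalized in GeneSpring. It has 1 column per array with nearly equal medians, from 8.0735 to 8.0744, and follows the log2 intensity of the same array. Other deposited columns used here were spot marks and probe names, and probe positions were those of the files, on mm9.

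Control spots and 93 to 221 outlier spots per array were left out, and 0 spots were saturated. The log2 intensity was averaged over the spots of a probe, and 55681 probes were quantile normalized with limma 3.58.1 in R 4.3.3. Probes well above background on all 8 arrays (for several spots, at least 0.5 of them) were tested with limma's linear model and empirical Bayes, with Benjamini-Hochberg adjustment, and the fit was tested on simulated data. A gene with several probes was read at the brightest. Symbols came from the files, and for lists and neighbours from RefSeq accessions for 28026 probes. Nothing says that pooled samples came from separate litters or cages, so p-values measure only the spread between these samples.

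The 10 genes and the lists were chosen from general knowledge with earlier results of these data known. The genes named are all 10 with every probe, in each list up to 3 with the smallest adjusted p, the 8 most alike, and the brightest of the skeletal muscle and blood lists; others were named for their role after their values were seen. Alternatives were scaling by the 75th percentile, normexp background correction with offset 50, the deposited table, other background filters, the methods' t-test, replicate number or slide row as a block, array weights, averaging of probes, and leaving out each sample.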

Additional observations from a re-analysis of the deposited data

Results flagged for a closer look

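In 46 groups of 4 values, those of the 11 probes, of the levels of the contractile and pericyte genes and of 10 other named genes, 3 samples lay far from the other 3 of their group, where the gap to the nearest sample, as a share of the whole range, exceeded the critical value of Dixon's test. Chance marks about 1 in 20 groups in this way. Myh11 in wildtype sample 1 had a log2 signal of 5.93, 0.71 below the next wildtype sample. Slc2a1 in FD sample 1 had 12.72, 0.15 below the next FD sample. P2ry14 in FD sample 2 had 7.90, 0.058 below the next FD sample.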

How the results depend on the processing

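Each fit below was compared with the one reported, in which 1 of the 9 genes, Myl9, was called among 904 probes. Myl9 stayed called, as 1 of the genes, with normexp background correction, the deposited table, a filter of 4 of 8 arrays, array weights and the mean of probes. The count was 0 with scaling by the 75th percentile, with no filter on background, with the methods' t-test after adjustment, with slide row as a block and within slide row 1 or row 2. At the methods' own threshold on unadjusted p and fold change, their t-test passed 1 of the 9, Myl9, and 1047 probes. The log2 difference of Myl9 was negative in all of these fits and in those that left out 1 sample. The count of all called probes was 556 without a filter, 266 with the methods' t-test, 355 in row 1, 15 in row 2 and 2102 with array weights.

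With the replicate block, 284 probes and 0 of the 9 genes were called (Myl9: adjusted p = 0.151 in limma). Samples of the 2 groups with the same replicate number did not deviate together (correlations over the tested probes of 0.06, -0.25, -0.05 and -0.02), so the numbers do not pair them.

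Leaving out 1 sample gave 414 to 1038 called probes, 0 to 1 called among the 9 genes, a median difference of -0.26 to -0.086 and 2 to 4 of 35 other contractile genes called lower. The median was -0.038 within row 1, where 5 of the 9 genes had a negative value, and -0.36 within row 2, where 8 did. These contractile genes called lower were 4 with normexp, 1 with the methods' t-test, 6 with array weights and 0 within either row. Directions turned for Rgs5 with array weights (0.028), and within row 1 for Pdgfrb (0.022), Acta2 (0.087), Cnn1 (0.24), Myh11 (0.53) and Mylk (-0.050). Mylk also turned with the mean of its probes (-0.090). Pdgfrb lay from -0.038 to 0.018 when 1 sample was left out, positive without FD sample 4. None of these values was called, and the cause was not tested. Tac1 and Slc2a1 lost their calls in most fits that left out 1 sample, with adjusted p of up to 0.134 and 0.128 in limma. Des was left without a test by its signal, which was close to background.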
